A study of Homo sapiens with 8 samples.

Results

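The HOX cluster genes were followed through nickel exposure and wash-out in BEAS-2B cells, an immortalised line derived from normal human bronchial epithelium. A gene was a member if its symbol was HOXA, HOXB, HOXC or HOXD followed only by digits, which gave 39 of the 25411 genes in the files, 11 in HOXA, 10 in HOXB, 9 in HOXC and 9 in HOXD. RNA-Seq counts and RPKM values, which are counts divided by the length of the gene and by the size of the library, were available for 8 libraries, 2 in each of 4 groups. Untreated cells (UT) were the control, and nickel-exposed cells (Ni-E) were kept in 100 µM NiCl2 for 6 weeks. In Ni-W, the nickel-washed-out cells, exposure was the same, after which a population grown from an individual exposed cell was cultured in nickel-free medium for over 6 months. Ni-W is therefore 1 clonal population, chosen at random by the study. HCl3 cells had the same description of treatment as Ni-W, but how long they were kept without nickel and whether they share an origin with Ni-W were not given. Both Ni-E libraries carry the label experiment 2 and the HCl3 libraries carry experiments 3 and 4, so experiment and group cannot be told apart.

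HOX genes encode homeodomain transcription factors that give cells along the body axis their positional identity. In vertebrates they lie in 4 clusters, and the order of genes along a cluster follows the order in which they are used from the anterior to the posterior of the embryo, so that low paralog numbers mark anterior and high numbers posterior identity. Their domains are kept through cell division by Polycomb proteins, which hold silent genes silent, and by trithorax proteins, which keep active genes active, while retinoic acid induces genes at the anterior end of the clusters. HOX proteins bind DNA together with TALE homeodomain cofactors of the PBX, MEIS and PKNOX families. Adult epithelia and cell lines retain part of the HOX pattern of the tissue they came from.

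In the hg19 coordinates of the files the members span chr7:27132614-27239725 (HOXA), chr17:46606807-46806111 (HOXB), chr12:54332576-54449814 (HOXC) and chr2:176957532-177055635 (HOXD). HOXA10, HOXA11 and HOXA13, at the posterior end of HOXA, were called higher in HCl3 against UT, and their promoters are shown for that reason. Each runs from 250 bases before to 50 bases after a transcription start of RefSeq (GRCh38.p14, minus strand), 5′ to 3′. Capitals mark the core ACGTG of the hypoxia response element on either strand.

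HOXA10, chr7:27174271-27174570: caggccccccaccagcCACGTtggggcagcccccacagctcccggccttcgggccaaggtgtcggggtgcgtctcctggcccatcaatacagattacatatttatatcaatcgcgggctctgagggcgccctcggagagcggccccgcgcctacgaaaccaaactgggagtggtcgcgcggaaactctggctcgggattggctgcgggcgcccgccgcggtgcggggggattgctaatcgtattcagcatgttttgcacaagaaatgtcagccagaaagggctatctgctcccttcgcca
HOXA10, chr7:27179812-27180111: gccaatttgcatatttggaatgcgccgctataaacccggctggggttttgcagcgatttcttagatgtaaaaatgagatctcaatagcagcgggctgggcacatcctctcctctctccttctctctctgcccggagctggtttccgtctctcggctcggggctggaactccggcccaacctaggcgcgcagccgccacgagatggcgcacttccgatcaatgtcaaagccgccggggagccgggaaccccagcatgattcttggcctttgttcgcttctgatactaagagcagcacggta
HOXA11, chr7:27185183-27185482: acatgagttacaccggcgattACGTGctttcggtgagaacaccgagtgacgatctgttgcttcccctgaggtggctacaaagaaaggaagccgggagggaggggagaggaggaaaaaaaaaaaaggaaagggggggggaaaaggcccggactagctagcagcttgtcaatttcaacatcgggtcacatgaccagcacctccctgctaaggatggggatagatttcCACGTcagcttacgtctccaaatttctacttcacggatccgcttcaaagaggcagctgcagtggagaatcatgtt
HOXA13, chr7:27200042-27200341: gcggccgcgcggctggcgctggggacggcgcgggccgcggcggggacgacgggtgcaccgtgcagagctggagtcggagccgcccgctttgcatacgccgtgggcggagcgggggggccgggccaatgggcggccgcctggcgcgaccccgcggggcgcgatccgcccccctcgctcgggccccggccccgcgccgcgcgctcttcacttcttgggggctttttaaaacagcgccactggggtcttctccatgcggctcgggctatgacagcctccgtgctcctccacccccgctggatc

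The core was present 1 time in the HOXA10 sequence of the start nearer to HOXA9 and 2 times in HOXA11, and the letters were not in the other HOXA10 sequence or in HOXA13. Of 27 promoters that were held for 20 of the 39 members, 15 contained ACGTG (55.6%), compared to 21.4% of all 35114 promoters of the same length. HOX promoters were also richer in CG dinucleotides, with a median of 22 against 14 in all promoters, and ACGTG itself contains a CG. The 4 printed sequences hold 25, 21, 13 and 44 CG dinucleotides in the order given. TGATNNAT, the letters of a joint HOX and PBX site, occurred in 3 of the 27 HOX promoters (11.1%), in 7.40% of all promoters and in none of the 4 above. A match in these windows is a description of the letters only.

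Libraries held between 26383920 and 45692298 counts, of which between 2949 and 4899 fell in HOX genes. A level of 3 reads in a library was taken as the floor, below which no fold is given other than a bound. The markers of an epithelial line were checked. KRT7, KRT8 and KRT18 were between 144 and 481 RPKM in every library, EPCAM between 0.95 and 1.79, and CDH1 at most 0.11, while TP63 was at 0 in each library. VIM, a mesenchymal marker, was between 816 and 1527 RPKM. Airway identity genes were low, with FOXA2, SOX2 and SFTPC at 0 and NKX2-1 between 0 in UT and 0.29 in Ni-W. The summed RPKM of the 8 epithelial markers ranged from 602 to 636 in UT, 579 to 794 in Ni-E, 947 to 972 in Ni-W and 935 to 996 in HCl3. That of the 7 mesenchymal markers ranged from 2061 to 2106, 1371 to 1385, 1283 to 1488 and 2226 to 2264 in the same order. These sums moved with the groups compared below, and their part in the HOX results was not tested. Markers of bladder, blood other than CD14, and endothelium summed to at most 0.57 RPKM or lay at or near 0. In bulk libraries a gene expressed in fewer cells and a gene with less RNA per cell cannot be told apart.

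BEAS-2B cells expressed HOXB and HOXC genes most, HOXA genes at a lower level and HOXD genes hardly at all. Of the 39 members, 15 reached a mean of at least 1 RPKM in a group, among them HOXA10, HOXA11, HOXB2, HOXB4, HOXB6, HOXB7, HOXB9, HOXB13, HOXC4, HOXC5, HOXC6, HOXC8, HOXC9 and HOXC11. A further 7 (HOXA2, HOXA3, HOXA5, HOXA13, HOXB3, HOXC10 and HOXC13) stayed under 1 RPKM but had a mean of at least 10 reads a library. Few reads were found for 11 (HOXA4, HOXA6, HOXA7, HOXA9, HOXB5, HOXB8, HOXC12, HOXD1, HOXD8, HOXD9 and HOXD12), and 6 had no read in any library (HOXB1, HOXD3, HOXD4, HOXD10, HOXD11 and HOXD13). A mean of at least 10 reads was reached by 56.4% of the members and by 54.5% of all genes. In UT cells the order by mean RPKM was HOXC8 (9.52 ± 0.021, SD, n = 2 libraries here and below), HOXC6 (7.66 ± 0.071), HOXC9 (5.36 ± 0.035), HOXB7 (4.23 ± 0.064), HOXB9 (4.04 ± 0.52) and HOXC4 (3.61 ± 0.17). The UT libraries of HOXB7 and HOXB9 overlapped, as did those of HOXB9 and HOXC4, so these neighbours in the order did not differ beyond their spread.

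**Figure D1:**
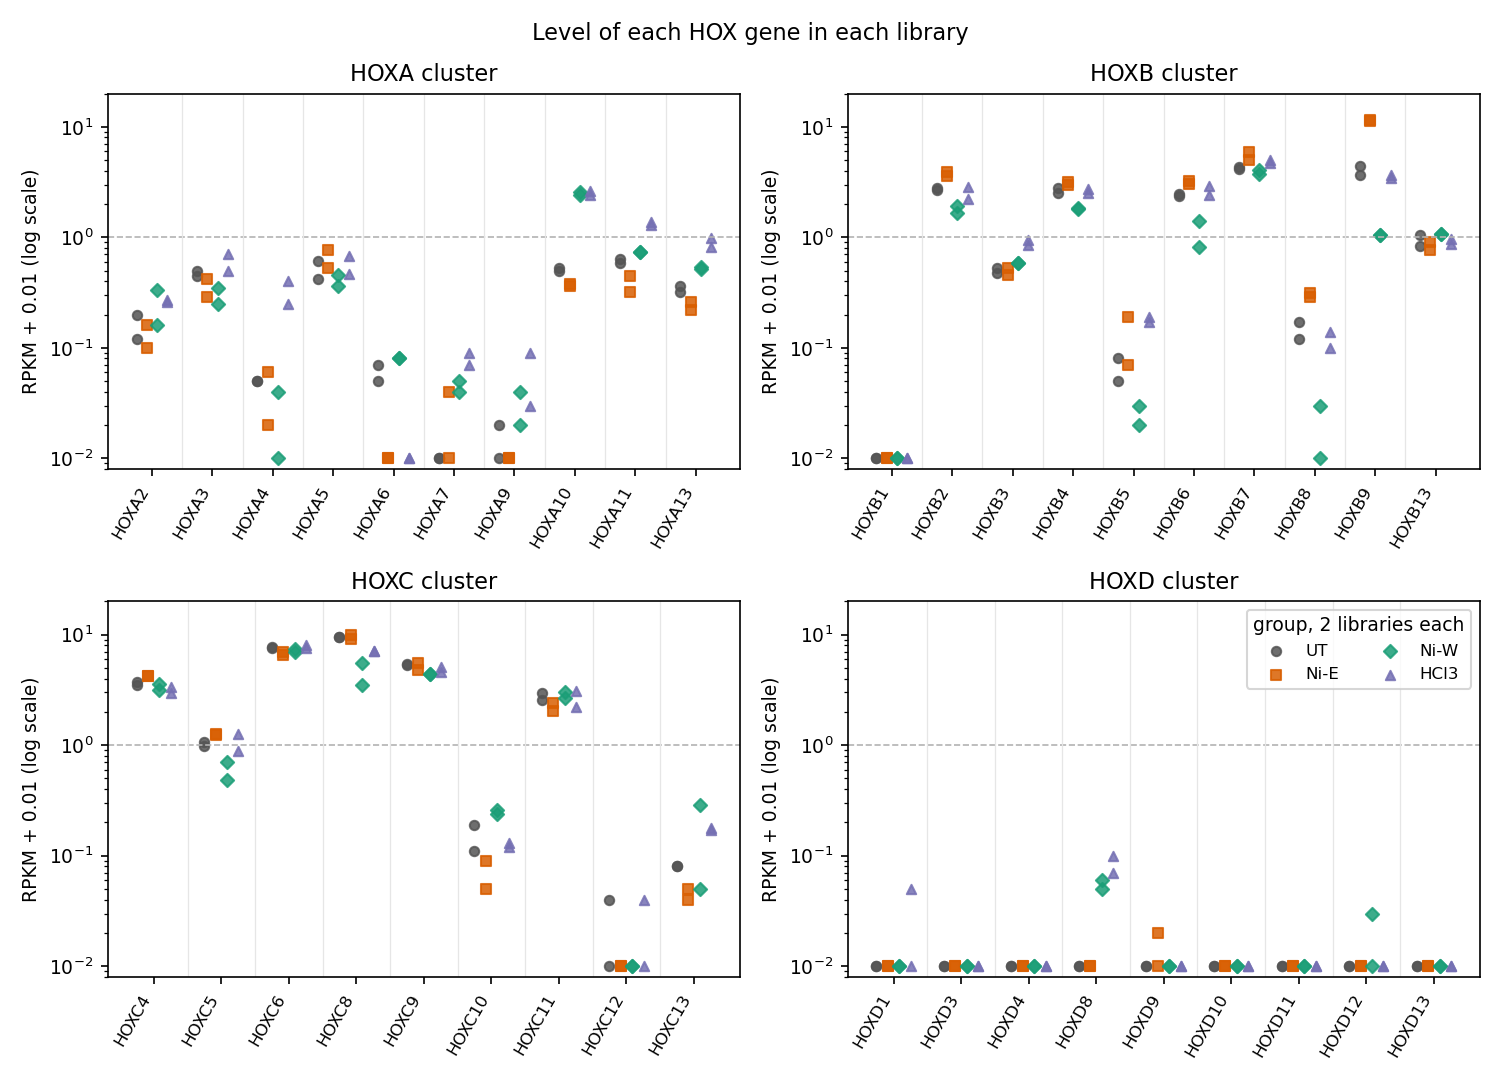
RPKM + 0.01 on a log scale of 38 HOX genes in each of the 8 libraries, with 1 panel a cluster, genes in order of paralog number and 1 point a library. The dashed line marks 1 RPKM, which 14 of these genes reach as a group mean, and the HOXD panel stays below it throughout.

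Summed over a cluster, the HOXA genes took 10.4 ± 0.47 CPM (counts per 1000000 counts of the library) in UT, compared to 8.85 ± 1.7 in Ni-E, then 18.2 ± 0.098 in Ni-W and 23.2 ± 0.81 in HCl3. The HOXB sums were 39.7 ± 0.29, 67.6 ± 0.76, 24.6 ± 1.6 and 40.8 ± 2.7 in the same order. HOXC sums were 65.9 ± 0.35, 63.3 ± 3.8, 49.5 ± 4.8 and 58.3 ± 1.1. The HOXA sum was thus higher in the washed-out groups than in UT or Ni-E. The HOXB sum was highest in Ni-E and lowest in Ni-W, and the HOXC sum was lowest in Ni-W. HOXC8 alone supplied 19.4 and 26.7% of HOXC reads in the Ni-W libraries, compared to 37.2 and 37.0% in UT. Its share was 38.4 and 38.7% in Ni-E, with 31.5 and 31.1% in HCl3. Whether the HOXC order holds without HOXC8, or the HOXA order without HOXA10, was not tested. The sums are descriptions, and the tests below are of single genes.

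HOXA10, a posterior gene with known roles in the uterus and in blood cell development, was higher in both washed-out groups. It was at 0.49 and 0.52 RPKM in the UT libraries, at 0.37 and 0.35 in Ni-E, at 2.54 and 2.39 in Ni-W and at 2.41 and 2.62 in HCl3. Each washed-out library lay above each UT and Ni-E library, and Ni-W and HCl3 overlapped. The log2 fold change against UT was 2.32 ± 0.30 (SE) in Ni-W (DESeq2, adjusted P value 8.41e-13) and 2.33 ± 0.30 in HCl3 (1.28e-13), whereas in Ni-E it was -0.50 ± 0.52 (0.633). Directly against Ni-E, HOXA10 was higher by 2.80 ± 0.32 in Ni-W (6.63e-17) and by 2.81 ± 0.31 in HCl3 (1.50e-17). HCl3 and Ni-W differed by 0.01, with a 95% interval from -0.37 to 0.40. The 4 calls of HOXA10 were made under each alternative test, threshold and left-out library. The share of HOXA reads that came from HOXA10 went from 12.2 and 14.7% in UT to 40.5 and 37.4% in Ni-W and to 30.6 and 31.6% in HCl3 (95% Wilson intervals from 9.37 to 19.5% over the UT libraries, from 33.5 to 43.9% over Ni-W and from 27.6 to 34.7% over HCl3). HOXA10 shares its strand with the read-through gene HOXA10-HOXA9, which had between 0 and 2 reads a library, and faces HOXA10-AS, which had between 0 and 4.

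HOXA11 and HOXA13, the next posterior genes, which pattern the limb and the urogenital tract, were higher in HCl3. HOXA11 was at 0.58 and 0.63 RPKM in UT, at 0.31 and 0.44 in Ni-E, at 0.72 and 0.73 in Ni-W and at 1.36 and 1.29 in HCl3. Both HCl3 libraries were above all other libraries. The log2 fold change in HCl3 was 1.08 ± 0.33 against UT (adjusted P value 0.00473), 1.80 ± 0.37 against Ni-E (1.10e-05) and 0.86 ± 0.29 against Ni-W (0.0226), and in Ni-W against UT it was 0.22 ± 0.39 (0.727). HOXA13 was at 0.35 and 0.31 RPKM in UT, at 0.21 and 0.25 in Ni-E, at 0.53 and 0.51 in Ni-W and at 0.98 and 0.81 in HCl3. Its groups did not overlap, with Ni-E lowest and HCl3 highest. HOXA13 was called higher in HCl3 against UT (1.38 ± 0.43, adjusted P value 0.00572) and against Ni-E (1.96 ± 0.47, 0.000164), and its values were 0.62 ± 0.50 in Ni-W against UT (0.381) and 0.77 ± 0.36 in HCl3 against Ni-W (0.137). The calls of HOXA11 and HOXA13 in HCl3 against UT were lost without HCl3 replicate 1 (adjusted P values 0.263 and 0.328), without HCl3 replicate 2 (0.227 and 0.192) and without UT replicate 1 (0.0839 and 0.0563), and that of HOXA13 also without UT replicate 2 (0.0657). The call of HOXA13 against Ni-E was lost without HCl3 replicate 1 (0.1185), and that of HOXA11 against Ni-W without any 1 of the 4 libraries (0.181 to 0.455), while that of HOXA11 against Ni-E was made in each alternative. In Ni-W against Ni-E neither gene was called with DESeq2 on the pair, and both were with edgeR (adjusted P values 0.0197 and 0.01055). HOXA13 was also called higher in HCl3 against Ni-W with edgeR (0.0274).

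HOXA4, a central gene, was nearly silent outside HCl3. Its libraries held 3 and 2 reads (UT), 1 and 3 (Ni-E), 3 and 0 (Ni-W), and 17 and 29 (HCl3). With the other groups at or under the floor, HOXA4 was at least 6.06-fold higher in HCl3 than in UT (adjusted P value 0.0231), at least 6.94-fold higher than in Ni-E (0.0120) and at least 7.44-fold above Ni-W (0.00804). The call against UT was lost when any 1 of the 4 libraries was left out (adjusted P values from 0.102 to 0.518), that against Ni-E without Ni-E replicate 1 (0.117) or either HCl3 replicate (0.1475 and 0.374), and that against Ni-W without Ni-W replicate 2 or HCl3 replicate 1. HOXA2, HOXA3 and HOXA5 ranged from 0.09 to 0.76 RPKM and were not called with DESeq2, while edgeR called HOXA3 higher in HCl3 against Ni-E (adjusted P value 0.0472) and against Ni-W (0.0270). HOXA6, HOXA7 and HOXA9 had between 0 and 7 reads a library, and limma on log2(RPKM + 0.1) alone called HOXA6 higher in Ni-W against Ni-E and HOXA7 higher in HCl3 against UT.

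HOXB9, the most abundant posterior gene of its cluster and a factor in thoracic and mammary patterning, rose under exposure and was lower than UT in Ni-W. It was at 3.67 and 4.40 RPKM in UT, at 11.44 and 11.19 in Ni-E, at 1.04 in both Ni-W libraries and at 3.40 and 3.67 in HCl3. The Ni-E libraries were the highest and the Ni-W libraries the lowest, and HCl3 touched the range of UT. HOXB9 rose in Ni-E by a log2 fold change of 1.44 ± 0.16 against UT (adjusted P value 8.07e-16) and was lower in Ni-W, at -1.99 ± 0.23 against UT (2.57e-16) and -3.44 ± 0.17 against Ni-E (4.70e-85). In HCl3 the difference from UT was -0.24 ± 0.18 (0.339; 95% interval from -0.60 to 0.12), that from Ni-E was -1.69 ± 0.14 (6.20e-32) and that from Ni-W was 1.75 ± 0.21 (7.46e-15). HOXB9 supplied 28.1 and 33.6% of HOXB reads in UT, a share of 51.4 and 49.9% in Ni-E, of 12.3 and 13.4% in Ni-W and of 26.4 and 25.9% in HCl3. Without it the HOXB genes summed to 28.7 and 26.2 CPM in UT, to 32.6 and 34.2 in Ni-E, to 22.6 and 20.3 in Ni-W and to 28.6 and 31.6 in HCl3, so the order of UT, Ni-E and Ni-W was the same with a smaller spread. No other gene of the files overlaps HOXB9.

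**Figure D2:**
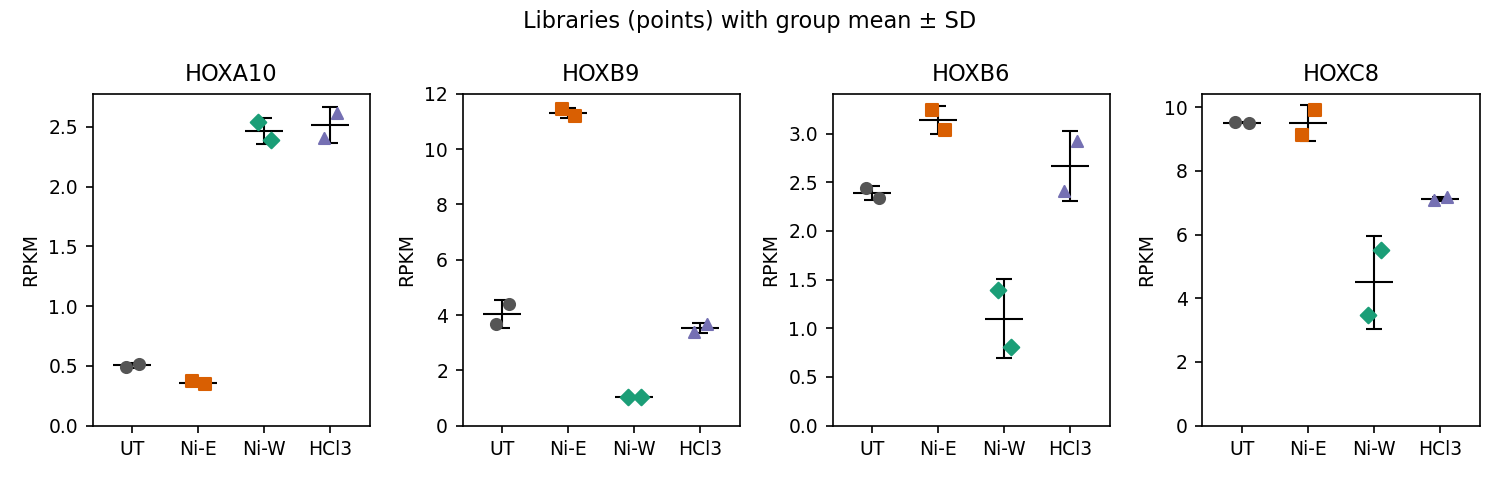
RPKM of HOXA10, HOXB9, HOXB6 and HOXC8 in each library (points, 2 a group), with the group mean (horizontal line) and SD (bar) on linear axes from 0. HOXA10 lies near 2.5 RPKM in the washed-out groups only, HOXB9 is near 11 in Ni-E and at 1.04 in Ni-W, and HOXB6 and HOXC8 are lowest in Ni-W.

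HOXB6, a central gene expressed in mesoderm and in red cell precursors, was lowest in Ni-W. It was at 2.44 and 2.34 RPKM in UT, at 3.24 and 3.04 in Ni-E, at 1.39 and 0.81 in Ni-W and at 2.41 and 2.92 in HCl3. The Ni-W libraries were below all others and far apart from each other. The log2 fold change in Ni-W was -1.14 ± 0.34 against UT (adjusted P value 0.00431) and -1.49 ± 0.32 against Ni-E (2.75e-05), and HCl3 was above Ni-W by 1.24 ± 0.31 (0.000845). Without Ni-W replicate 2, the lower library, the value against UT was -0.82 (adjusted P value 0.261) and HCl3 was 0.92 above Ni-W (0.0962). The call against UT also did not pass without UT replicate 1 (0.113) or UT replicate 2 (0.0661), and that of HCl3 against Ni-W without HCl3 replicate 1 (0.0728) or HCl3 replicate 2 (0.307). HOXB6 overlaps HOXB-AS3 on the opposite strand, which had between 0 and 10 reads a library.

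HOXB2 and HOXB4 were likewise highest in Ni-E and lowest in Ni-W. HOXB2, a hindbrain patterning gene, was at 2.79 and 2.65 RPKM in UT, at 3.54 and 3.89 in Ni-E, at 1.91 and 1.65 in Ni-W and at 2.23 and 2.87 in HCl3, and HOXB4, which promotes self-renewal of blood stem cells, was at 2.77 and 2.51, 3.13 and 2.95, 1.82 and 1.79, and 2.48 and 2.73. Both were above UT in the Ni-E libraries and below it in the Ni-W libraries. In Ni-W against Ni-E both were called lower, HOXB2 by a log2 fold change of -1.05 ± 0.27 (adjusted P value 0.000376) and HOXB4 of -0.74 ± 0.25 (0.00894), whereas against UT the values in Ni-W were -0.64 ± 0.28 (0.0701) and -0.58 ± 0.26 (0.0686). HOXB2 was called lower in Ni-W against UT with edgeR (adjusted P value 0.0182), with all 8 libraries in 1 fit (0.02495) and with a mean count of at least 10 (0.0477), and HOXB4 with GC and length trends removed (0.0365). HOXB8 libraries held 12 and 6 reads (UT), 20 and 21 (Ni-E), 0 and 1 (Ni-W), and 10 and 7 (HCl3). In Ni-W it was lower than Ni-E by at least 7.32-fold (adjusted P value 0.00376), and lower than UT by at least 3.46-fold without passing (0.0658), though it passed with all 8 libraries in 1 fit (0.02035). In HCl3 against Ni-E, HOXB8 was called lower with edgeR (0.0238) and with limma on log2(RPKM + 0.1) (0.0307), but not with DESeq2. HOXB3 was at 0.93 and 0.85 RPKM in HCl3 and between 0.45 and 0.58 in the other libraries. It was called higher in HCl3 against Ni-E (0.88 ± 0.34, adjusted P value 0.0296) and missed against UT with DESeq2 (0.79 ± 0.33, 0.0515) but passed with edgeR (0.00822). In HCl3 against Ni-W only edgeR called HOXB3 higher (0.0270). The calls of HOXB4 in Ni-W against Ni-E and of HOXB3 in HCl3 against Ni-E did not survive the loss of any 1 library, that of HOXB8 did not survive without Ni-W replicate 1 (0.115) and had no adjusted P value without Ni-E replicate 1, and that of HOXB2 was lost without Ni-W replicate 2 (0.0689). HOXB2 and HOXB3 overlap HOXB-AS1 on the opposite strand, which had between 1 and 6 reads a library. HOXB7 (3.72 to 5.94 RPKM) and HOXB13 (0.75 to 1.07) were not called in any comparison by any test run. HOXB5 had between 1 and 13 reads a library and was called higher in HCl3 against Ni-W with edgeR (adjusted P value 0.00816) but not DESeq2.

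HOXC8, the most abundant HOX gene in UT and a central gene of the thoracic skeleton, was lower in Ni-W. It was at 9.53 and 9.50 RPKM in UT, at 9.11 and 9.91 in Ni-E, at 3.47 and 5.52 in Ni-W and at 7.08 and 7.17 in HCl3. Ni-W was below HCl3 and HCl3 below UT and Ni-E, with no overlap between these 3 levels. The log2 fold change in Ni-W was -1.12 ± 0.20 against UT (adjusted P value 4.95e-07) and -1.08 ± 0.20 against Ni-E (5.72e-07). In HCl3 the difference from UT of -0.47 ± 0.14 passed the test (0.00369) but not the threshold of 1.5-fold, and HCl3 was 0.66 ± 0.19 above Ni-W (0.00549), a call that was lost without Ni-W replicate 1 (0.35, adjusted P value 0.332), HCl3 replicate 1 (0.215) or HCl3 replicate 2 (0.293), and with GC and length trends removed (0.227). HOXC5, its neighbour but one, was at 1.07 and 0.98 RPKM in UT, at 1.22 and 1.25 in Ni-E, at 0.47 and 0.70 in Ni-W and at 0.87 and 1.24 in HCl3, and was called lower in Ni-W against Ni-E (-1.10 ± 0.45, adjusted P value 0.0402), a call lost when any 1 of the 4 libraries was left out and with GC and length trends removed (0.120). In Ni-W against UT only edgeR called it (adjusted P value 0.0475). HOXC5 contains the hairpin MIR615, which had no reads.

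The remaining expressed HOXC genes were not called with DESeq2. HOXC6 ranged from 6.6 to 8.08 RPKM, HOXC9 from 4.40 to 5.53, HOXC4 from 2.98 to 4.25 and HOXC11 from 2.01 to 3.09 in all 8 libraries, and no test run called them. For HOXC6 in Ni-W against UT the log2 fold change was -0.16 ± 0.16 (adjusted P value 0.516). HOXC10 (0.04 to 0.25 RPKM) was called higher in Ni-W against Ni-E with edgeR (adjusted P value 0.0116) and limma on log2(RPKM + 0.1) (0.0275). HOXC13 had 35 reads in Ni-W replicate 1 and 3 in Ni-W replicate 2, with between 2 and 17 in the other libraries, so a single library set its Ni-W mean. It was called higher in HCl3 against Ni-E with edgeR (adjusted P value 0.0101), and by limma on log2(RPKM + 0.1) in HCl3 against both UT and Ni-E. HOXC12 had 2 reads in all.

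HOXD genes gathered 27 reads over all libraries, and no HOXD gene reached 0.1 RPKM in a library. HOXD8 had 22 of them, all in washed-out cells, with 6 and 2 reads in Ni-W, 8 and 6 in HCl3 and 0 in UT and Ni-E. It was not called with DESeq2 or edgeR, while limma on log2(RPKM + 0.1) called it higher in HCl3 against UT and against Ni-E. HOXD1 had 3 reads, all in 1 HCl3 library, and HOXD9 and HOXD12 had 1 read each. At 3 reads a library the floor corresponds to between 0.0657 and 0.114 CPM, so lower levels could not be seen.

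The share of HOX genes called was near that of all genes in the comparisons with UT. In Ni-E against UT, 1 of 23 tested members was called (HOXB9, higher), compared to 5.94% of all 14140 genes tested, 3.84% higher and 2.10% lower. In Ni-W against UT it was 4 of 24, with HOXA10 higher and HOXB6, HOXB9 and HOXC8 lower, compared to 16.1% of 15477 genes, 11.1% higher and 4.95% lower. HCl3 against UT gave 4 of 28, which were HOXA4, HOXA10, HOXA11 and HOXA13, all higher, compared to 15.2% of 15421, 11.4% higher and 3.84% lower. Against Ni-E, 8 of 24 members were called in Ni-W (21.0% of all genes), 1 higher (12.0%) and 7 lower (9.04%). In HCl3 against Ni-E it was 6 of 27 (17.6% of all genes), 5 higher (10.6%) and 1 lower (6.95%). HCl3 against Ni-W called 5 of 24, all higher in HCl3 (HOXA4, HOXA11, HOXB6, HOXB9 and HOXC8), where 4.90% of 14605 genes were called in either direction, 3.18% higher and 1.72% lower. The comparisons share libraries, so their lists are given side by side and are not independent.

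**Figure D3:**
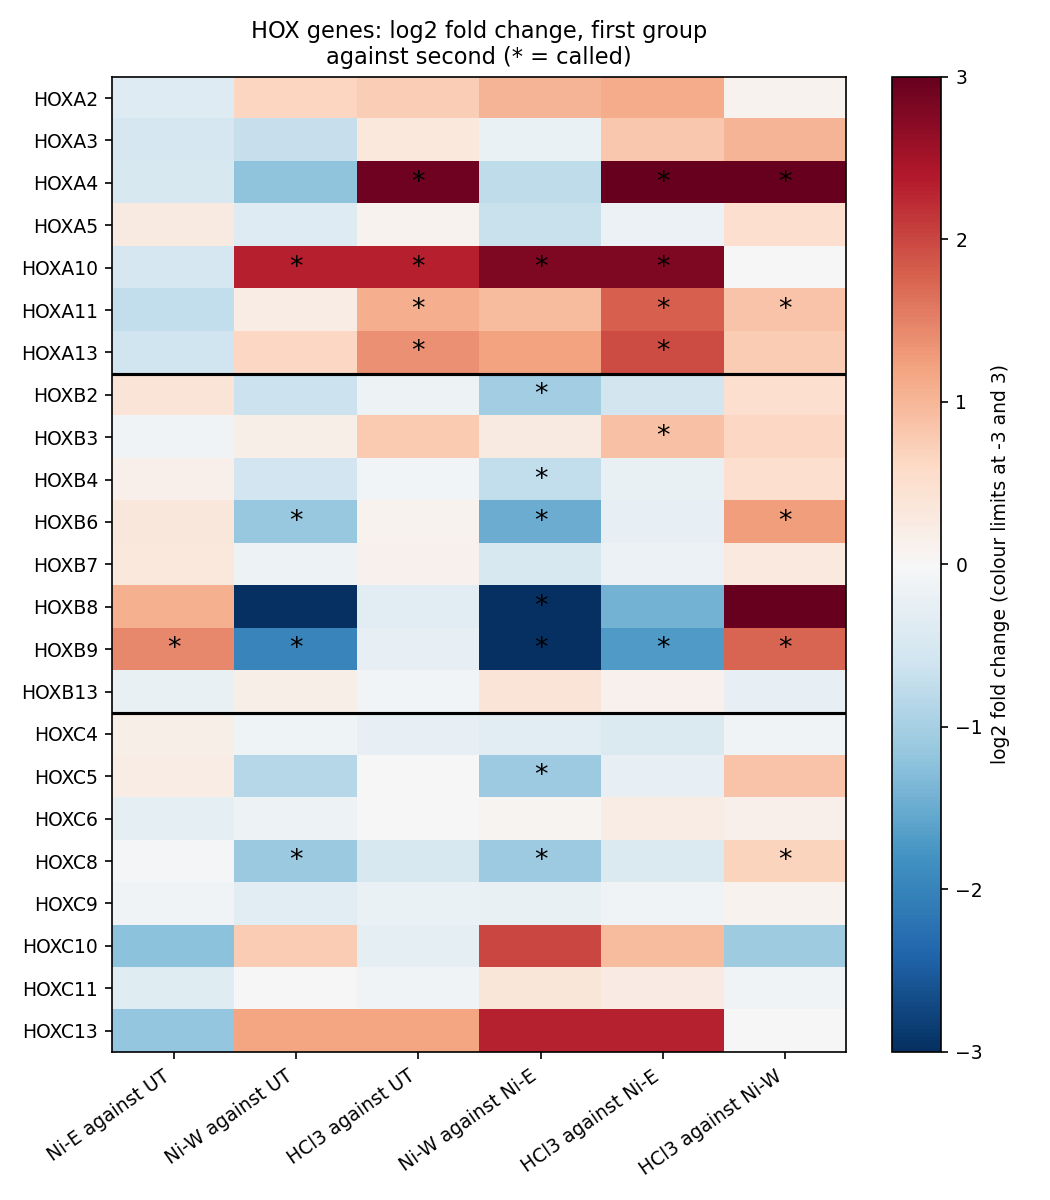
Log2 fold changes of 23 HOX genes (rows, in cluster order, 21 with a mean of at least 10 reads plus HOXA4 and HOXB8) in the 6 comparisons (columns), with colour limits at -3 and 3 and a star where the gene was called. Stars of HOXA genes are all in red cells, and those of HOXB and HOXC genes in the columns Ni-W against UT and Ni-W against Ni-E are all in blue cells. Fitted values of HOXA4 and HOXB8 rest on groups with few reads.

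By cluster, among genes with a mean of at least 10 reads, the median log2 fold change of the 7 HOXA genes against UT was -0.49 (Ni-E), 0.61 (Ni-W) and 0.74 (HCl3). That of the 7 HOXB genes was 0.31, -0.58 and -0.07, and that of the 8 HOXC genes -0.19, -0.14 and -0.15. Over all 13856 such genes the medians lay between -0.01 and 0.00. In HCl3 all 7 HOXA genes were above 0 and 4 of 10 tested members were called higher (11.4% of all genes), of which the calls of HOXA4, HOXA11 and HOXA13 were lost when certain single libraries were left out. In Ni-W 5 of the 7 were above 0 and 1 was called higher (11.1% of all genes). By position along the clusters, none of the 8 central genes (paralogs 4 to 8) was above 0 in Ni-W against UT, with a median of -0.48. Of the 9 posterior genes (9 to 13) 7 were above 0, with a median of 0.22 and a range from -1.99 (HOXB9) to 2.32 (HOXA10). HCl3 against UT did not show this split, with a central median of -0.01 (3 of 8 above 0) and a posterior median of -0.09 (4 of 9). All central genes counted here but HOXA5 lie in HOXB or HOXC. The anterior genes (1 to 3) had a median of 0.18 in Ni-W, with 3 of 5 above 0. The expressed HOX transcripts had a median GC content of 53.5%, compared to 48.0% in all genes of that count, and with trends of GC content and length removed the members called against UT numbered 5 in Ni-W, with HOXB4 added to the 4 named above, and 4 in HCl3.

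Of 24 other genes in or at the edge of the clusters, most of them noncoding, 8 were tested against UT in Ni-W and 8 in HCl3, and 2 were called higher in each (11.1 and 11.4% of all genes). HOXC13-AS (chr12:54329112-54333427), which crosses the posterior edge of HOXC and lies opposite the start of HOXC13, was at 0.70 RPKM in both UT libraries, at 0.33 and 0.53 in Ni-E, at 2.77 and 2.78 in Ni-W and at 1.93 and 2.15 in HCl3. It rose against UT by a log2 fold change of 1.98 ± 0.36 in Ni-W (adjusted P value 6.02e-07) and 1.51 ± 0.39 in HCl3 (0.000593). HAGLR (chr2:177037917-177053686), a noncoding RNA of the HOXD cluster that overlaps HOXD1 on the opposite strand, had 38 and 29 reads in Ni-W and none in the other 6 libraries. The Ni-W mean of HAGLR was thus 8.86-fold above the floor in UT (DESeq2, adjusted P value 0.000104) and 11.1-fold above that in HCl3 (7.31e-05). This RNA set the washed-out groups apart in a cluster whose coding genes were near 0. HOTAIRM1 (chr7:27135713-27139877), a noncoding RNA at the anterior end of HOXA, was at 3.96 and 3.51 RPKM in UT, at 4.71 and 4.01 in Ni-E, at 5.30 and 5.31 in Ni-W and at 5.86 and 7.13 in HCl3, and was called higher in HCl3 against UT (0.74 ± 0.24, adjusted P value 0.00905).

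HOTAIR (chr12:54356092-54368740), an RNA of HOXC known for binding Polycomb proteins, was at 1.10 and 1.02 RPKM in UT, at 0.68 in both Ni-E libraries, at 1.87 and 1.59 in Ni-W and at 1.64 and 1.5 in HCl3. Its groups did not overlap except for Ni-W and HCl3. It was called higher in Ni-W and HCl3 against Ni-E, by 1.37 ± 0.33 (adjusted P value 0.000167) and 1.20 ± 0.33 (0.00133), and the value against UT was 0.68 ± 0.30 in Ni-W (0.0702) with DESeq2. In Ni-W against UT, edgeR called 1 gene inside HOXC, where HOTAIR alone had an unadjusted P value under 0.05 with DESeq2. HOTAIR overlaps HOXC11 on the opposite strand, and because no source states how strand was treated in counting, reads of such pairs (HOXC13-AS and HOXC13, HAGLR and HOXD1, HOXB-AS3 and HOXB6) may be shared. HOXA11-AS libraries held 2 and 1 reads (UT), 3 and 5 (Ni-E), 11 and 7 (Ni-W), and 15 each (HCl3). The microRNA hairpins of the clusters had at most 1 read a library.

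**Figure D4:**
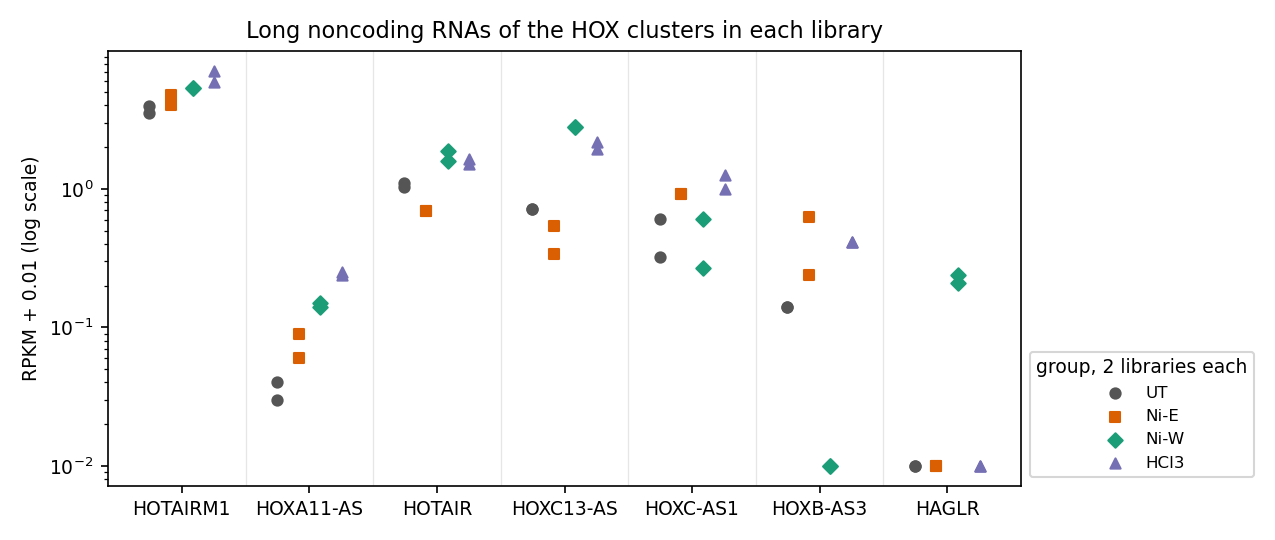
RPKM + 0.01 on a log scale of 7 noncoding RNAs of the HOX clusters in each library, with 1 point a library and 2 libraries a group. HAGLR has reads only in Ni-W, HOXC13-AS is highest in Ni-W and HCl3, and HOXB-AS3 is at 0 in Ni-W.

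The genes next to the clusters were followed too, and whether changes spread to them was not tested. Of the 5 nearest genes on each side of HOXA, 4 were tested, and SNX10, a sorting nexin, was higher in Ni-E (1.28 ± 0.26, adjusted P value 3.62e-05), Ni-W (1.77 ± 0.23, 8.06e-13) and HCl3 (1.10 ± 0.25, 0.000133) against UT, with SKAP2 also higher in HCl3 (0.59 ± 0.13, 0.000110). Of all genes, 3.84, 11.1 and 11.4% were called higher against UT in Ni-E, Ni-W and HCl3. Of 7 tested next to HOXB, ATP5G1, a subunit of ATP synthase, was called lower in HCl3 (3.84% of all genes). There was no call in Ni-E or Ni-W (DESeq2, with 0 and 2 genes at an unadjusted P value under 0.05, and 0 calls with edgeR or limma). Next to HOXC, these tools called no gene against UT, with 1, 2 and 3 genes at an unadjusted P value under 0.05 in Ni-E, Ni-W and HCl3. Of the genes next to HOXD, 3 of 6 tested were higher in Ni-W against UT (11.1% of all genes), namely KIAA1715 (0.79 ± 0.13, 5.98e-08), the transcription factor ATF2 (0.79 ± 0.11, 1.61e-10) and the noncoding LINC01116, which had no reads in UT, with 33 and 22 found in Ni-W and 22 and 18 found in HCl3. The mean of LINC01116 was 7.18-fold above the floor of UT in Ni-W (0.000324) and 5.31-fold above it in HCl3 (0.00131).

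The regulators of HOX genes were given from fixed lists. Of 10 trithorax group genes tested in each comparison with UT, DESeq2, edgeR and limma called 0. Of these genes, 3, 3 and 2 had an unadjusted P value under 0.05 in Ni-E, Ni-W and HCl3. DESeq2 called 15.2% of all genes in HCl3 against UT, 16.1% in Ni-W and 5.94% in Ni-E. At such shares a list of 10 or 17 genes would hold few calls, so 0 calls do not show that the regulators were unchanged. Among 17 Polycomb genes, CBX2 was higher and PHC3 lower in Ni-E (3.84 and 2.10% of all genes). In Ni-W and HCl3 none of the 17 was called against UT by these tools, with 4 and 8 at an unadjusted P value under 0.05. Among 9 TALE cofactors, MEIS3 was called higher and PBX3 lower in Ni-E (3.84 and 2.10% of all genes). No TALE cofactor was called in HCl3 against UT with DESeq2 or limma, 1 was with edgeR, and 2 had an unadjusted P value under 0.05. Against Ni-E, DESeq2 called 1 of 10 trithorax genes higher in Ni-W, 1 of 17 Polycomb genes higher and 2 lower, and 2 of 8 tested TALE cofactors higher (12.0 and 9.04% of all genes). In HCl3 against Ni-E, 2 of 8 TALE cofactors were called higher (10.6% of all genes). There 6 trithorax and 8 Polycomb genes, none of them called, had an unadjusted P value under 0.05.

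Retinoid pathway genes were called in both washed-out groups. Against UT, 5 of 11 tested genes were higher and 1 lower in Ni-W, and 5 of 12 were higher in HCl3, compared to 11.1 and 11.4% of all genes called higher. DHRS3, a retinal reductase induced by retinoic acid, was at 0.55 and 0.32 RPKM in UT, at 0.35 and 1.03 in Ni-E, at 4.52 and 3.12 in Ni-W and at 2.83 and 3.29 in HCl3. Its log2 fold change was 3.08 ± 0.36 in Ni-W (adjusted P value 6.56e-16) and 2.74 ± 0.36 in HCl3 (7.11e-13). CRABP2, which carries retinoic acid to the nucleus, rose by 2.43 ± 0.53 in Ni-W (4.61e-05) and 2.62 ± 0.50 in HCl3 (1.77e-06), and CYP26B1, which degrades retinoic acid, by 1.23 ± 0.37 (0.00490) and 1.47 ± 0.34 (0.000156). The receptors RARA and RARG were also higher in Ni-W, RARA and RXRA in HCl3, and the retinol dehydrogenase RDH10 was lower in Ni-W. In Ni-E the only member called was ALDH1A3, which makes retinoic acid, at -1.22 ± 0.27 (0.000277). In the direct comparison with Ni-E, 6 of 12 tested genes were higher and 1 lower in Ni-W (12.0 and 9.04% of all genes), and 6 of 12 were higher in HCl3 (10.6%). Whether these genes bear on the HOX values was not tested.

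Other homeobox genes of the same class lie outside the clusters. Of 21 on the list, DLX1 and DLX4 were higher and MNX1 lower in Ni-W against UT, and GBX2, DLX1 and DLX4 were higher in HCl3, out of 8 and 6 tested. Of all genes 11.1% were called higher and 4.95% lower in Ni-W, and 11.4% higher in HCl3. MNX1, the motor neuron and pancreas homeobox gene, was at 1.30 and 0.92 RPKM in UT, at 2.59 and 2.56 in Ni-E, at 0.54 in both Ni-W libraries and at 0.64 and 0.82 in HCl3. It rose in Ni-E (1.22 ± 0.30, adjusted P value 0.00132) and was lower in Ni-W (-1.01 ± 0.41, 0.0412), the same directions as HOXB9 in these libraries. DLX4 changed by 1.29 ± 0.28 in Ni-W (2.78e-05) and 1.58 ± 0.25 in HCl3 (8.84e-09), and DLX1 by 1.56 ± 0.35 (7.36e-05) and 1.69 ± 0.33 (3.55e-06).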

How the data were processed

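RNA-Seq libraries of BEAS-2B cells were grouped by the sample labels, 2 in each of 4 groups, and replicates were numbered from the repeat suffix in the labels. The study's methods state 2 biological replicates for RNA-Seq but do not mention HCl3, so the kind of its replicates was not given. The authors used STAR 2.4 and hg19 for alignment, discarded multiply aligned reads, which takes out reads that HOX paralogs share, and made the deposited raw counts and RPKM values (rounded to 2 decimals) per RefSeq gene with BioWardrobe. Whether strand was used was not stated. The deposited counts were tested in R 4.3.3 with DESeq2 1.42.0, pair by pair on the 4 libraries and all genes. A gene was called at an adjusted P value under 0.05 (Benjamini-Hochberg) and at least 1.5-fold, the study's thresholds. P values measure the spread between 2 libraries a group. Both Ni-W libraries are of 1 clonal population, so its P values hold no spread between clones. In Ni-W against UT or Ni-E, clone, time in culture and wash-out cannot be told apart.

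Alternatives were edgeR 4.0.16 (quasi-likelihood test), TMM factors, a mean count of at least 10, all 8 libraries in 1 fit, limma 3.58.1 on log2(RPKM + 1) or log2(RPKM + 0.1), a threshold of 2-fold or none, the replicate suffix as a block, removal of trends with GC content and length, and each library left out. The crossed replicate block was added after the data were seen. Members with a mean of at least 1 RPKM in a group, or called in a comparison, were described 1 by 1, and other genes come from fixed lists (TALE cofactors, trithorax, Polycomb, retinoid pathway, other ANTP homeobox genes, genes inside and 5 on each side of the clusters, cell type markers), with values for up to 3 a list. The members and lists were chosen with earlier results of these data known. Folds against groups at or under 3 reads in each library are the mean of the higher group over that floor, per library. They bound the lower group only and leave out the error of the higher group. Intervals of shares are 95% Wilson intervals, and these intervals and the floors cover counting error only. Intervals of log2 fold changes come from the SE of DESeq2, which includes its fitted spread between libraries. Promoters are RefSeq sequences of GRCh38.p14, since no hg19 genome was used here. GC content came from GENCODE transcripts. Fits were tested on simulated data. The study's chromatin data were not analysed here. Values of some genes are not reported here, although counts, sums and medians over the members and lists include them.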

Additional observations from a re-analysis of the deposited data

Results flagged for a closer look

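Ni-W and HCl3 carry the same treatment text, and 5 HOX genes differed between them in a direct test (DESeq2, HCl3 against Ni-W). HOXB9 was higher in HCl3 by a log2 fold change of 1.75, and this call was made under each of the alternatives run on it. HOXB6 was higher by 1.24, HOXC8 by 0.66 and HOXA11 by 0.86, and each of these 3 calls was lost when certain single libraries were left out. HOXA4 had a fitted value of 4.03, which rests on 3 and 0 reads in Ni-W, and its call was lost without Ni-W replicate 2 (adjusted P value 0.116) or HCl3 replicate 1 (0.146), and it had no adjusted P value without HCl3 replicate 2 or with all 8 libraries in 1 fit. HOXA10 did not differ between these groups by more than its interval from -0.37 to 0.40. The HCl3 libraries are labelled as other experiments, so a difference between clones, times or experiments cannot be told apart.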

How the results depend on the processing

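Of 235 recomputed counts of called HOX genes and cluster medians, 179 were unchanged within the limits used. A count was within the limit up to a ratio of 1.5, and a median up to the typical SD between replicates of its genes. These limits are wide, so that a count going from 8 to 12 was taken as unchanged. Among fold changes of single genes, none that was called in either fit turned its direction. Counts and medians were not checked for direction in this way. The count of 1 in Ni-E against UT became 0 with limma on log2(RPKM + 1) and 0 on log2(RPKM + 0.1), and limma called 0 of all genes. There 1 and 2 members had both an unadjusted P value under 0.05 and at least 1.5-fold. In Ni-W against UT (4), edgeR gave 7, all 8 libraries in 1 fit 7 and limma with a pseudocount of 1 gave 2. In HCl3 against UT (4), limma gave 1 with a pseudocount of 1 and 9 with 0.1, and leaving out libraries gave 1 to 2. In Ni-W against Ni-E (8, 1 higher and 7 lower), edgeR gave 12 (5 and 7), all 8 libraries in 1 fit 11 (4 and 7), limma with a pseudocount of 0.1 gave 9 (4 and 5) and with 1 gave 5, and leaving out libraries 5 to 6. In HCl3 against Ni-E (6, 5 higher and 1 lower), edgeR and limma with 0.1 gave 9 each (7 and 2), and leaving out libraries 3 to 5. In HCl3 against Ni-W (5), edgeR gave 9, limma 1 and 2, the threshold of 2-fold 3, and leaving out libraries 1 to 3. A lone library left in a group was assumed to vary like the others. The cause of these changes was not tested.

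Whether the replicate suffix pairs the libraries cannot be told from the correlations that follow, since weak pairing would also give small values. Same-suffix deviations had an r of -0.0912 (Ni-E and UT), 0.189 (Ni-W and UT), -0.140 (HCl3 and UT), -0.0946 (Ni-W and Ni-E), 0.00317 (HCl3 and Ni-E) and -0.0408 (HCl3 and Ni-W) across 13856 genes. With the replicate block the counts in that order were 1, 4, 1, 6, 4 and 3, and they were 1, 4, 1, 5, 4 and 3 when GC and length trends were removed besides. The crossed replicate block, added after the data were seen, gave 1 in HCl3 against UT. Over all genes the block gave 491 calls in Ni-E against UT in place of 840, and 466 in HCl3 against Ni-W in place of 716.

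Without 1 library the HOXA median ranged from -0.72 to -0.25 in Ni-E against UT, from 0.21 to 0.62 in Ni-W against UT, from 0.65 to 1.14 in HCl3 against UT, from 0.57 to 1.18 in Ni-W against Ni-E, from 0.79 to 1.5 in HCl3 against Ni-E and from 0.21 to 0.73 in HCl3 against Ni-W. The HOXB median ranged from -0.14 to 0.0943 in HCl3 against UT and from 0.44 to 0.59 in HCl3 against Ni-W. With every member that had a read, the HOXA median was 1.08 in HCl3 against UT, 1.88 in HCl3 against Ni-E and 0.77 in HCl3 against Ni-W, and the HOXB median -1.05 in Ni-W against Ni-E and 0.62 in HCl3 against Ni-W. With GC and length trends removed, the HOXB median was 0.19 in Ni-E against UT, -0.59 in Ni-W against Ni-E and 0.43 in HCl3 against Ni-W, and the HOXC median in Ni-E against UT was -0.32, or -0.084 with edgeR.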

Other observations

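At the HOXC edge, HOXC13 had 35 and 3 reads in the Ni-W libraries, while HOXC13-AS on the opposite strand had 200 and 136, so the replicates of the coding gene were far apart and those of the noncoding RNA were not. Along HOXD, HOXD8 and LINC01116 had reads in both washed-out groups, while HAGLR had reads in Ni-W and not in HCl3. HAGLR had 38 and 29 reads in Ni-W and 0 in both HCl3 libraries, HOXD8 had 6 and 2 (Ni-W) and 8 and 6 (HCl3), and LINC01116 outside the cluster had 33 and 22 (Ni-W) and 22 and 18 (HCl3), with 0 reads in UT for each of the 3 genes.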
